A study of Arabidopsis with 12 samples.

Results

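The nicotianamine synthases NAS1, NAS2, NAS3 and NAS4, the citrate transporter FRD3 and the nicotianamine transporter ZIF1 are 6 Arabidopsis thaliana genes that make or move small metal-binding molecules. They were taken by gene ID from an expression table of 28693 loci, and all 6 were found. For NAS2, whose ID stands on more than 1 row, the row with the highest mean was used.

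RNA sequencing compared Col-0 wild type with the mutant pad4 (phytoalexin deficient 4), each on plates labelled +Fe (complete medium) or -Fe (the same medium lacking Fe) for 7 d. Each of the 4 groups had 3 libraries, 12 in all. Seedlings grew at 24 °C and 140 µmol photons per m2 and s, with 16 h of light and 8 h of dark, and were 7 d old at extraction. The labels name neither the pad4 allele nor the number of plants in a library. They also do not tell whether the 3 libraries of a group are separate cultures. The p-values therefore weigh differences against the spread between libraries, which may be technical. The stated purpose was to learn how salicylic acid, whose build-up depends in part on PAD4, bears on the response to Fe deficiency.

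Nicotianamine is made from S-adenosylmethionine by nicotianamine synthase and binds Fe, Zn and Cu inside cells and in the phloem. ZIF1 sits in the vacuole membrane and moves nicotianamine into the vacuole, which also affects where Zn is kept. FRD3 releases citrate into the xylem, where citrate keeps Fe soluble on its way from root to shoot, and its transcript is known mainly from cells around the root vessels.

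The Fe labels were checked first, on genes with a well-known response. The bHLH100 transcript, which is known to build up under Fe deficiency, ran from 976 to 1137 FPKM in the 6 libraries labelled +Fe but from 0.122 to 0.666 in the 6 labelled -Fe. The ferritin gene FER1, known to rise with ample Fe, ran from 10.3 to 11.8 FPKM under the +Fe label and from 271 to 333 under the -Fe label. Both genes thus go against the labels, and every Fe direction below is given by label only. FPKM, the authors' unit, scales fragments by gene length and by the library's mapped total, and the number of reads behind a value is unknown.

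PAD4 itself was lower in pad4, at 10.3 to 13.6 FPKM against 18.1 to 22.0 in wild type, with no overlap between the 6 libraries of each genotype. On the tissue the labels differ: 1 field gives the shoot, the protocol names leaves with roots, and the design text has whole seedlings. Of 16 root markers, 8 averaged at least 1 FPKM over all libraries, and the markers were not uniform. The root-hair genes EXPA7 and RSL4 were listed at 0 in all 6 libraries labelled +Fe, and were also low labelled -Fe, at most 0.532 and 0.188 FPKM. IRT1, the Fe uptake transporter of the root surface, went the other way, at 5.76 and 4.61 FPKM in wild type and pad4 labelled +Fe, listed at 0 in all 3 wild-type libraries labelled -Fe, and at 0.0405 in pad4 labelled -Fe. The summed root markers were 340.1 to 349 FPKM in wild type labelled +Fe, 338 to 369 in wild type labelled -Fe, 326 to 341 in pad4 labelled +Fe and 482 to 543 in pad4 labelled -Fe. The higher sum in the last group lay mainly in PYK10, a root beta-glucosidase, at 453 ± 30.1 FPKM (SD, n = 3) against means of 290.1 to 309 elsewhere. The summed levels of the 5 leaf markers on rows of their own, photosynthesis genes, were 7090 to 8927 and 6737 to 8897 FPKM in wild type and pad4 labelled +Fe, and 12508 to 17369 and 15895 to 23377 labelled -Fe. Of the 8 root markers tested, 2 were called higher and 2 lower with the -Fe label in wild type. In pad4, 4 were called higher and 1 lower, while all 5 leaf markers were called higher in both genotypes. Over all loci tested, 25.2% were called higher and 26.7% lower in wild type, and 26.3% and 31% in pad4. IRT1, among the 8, reached 1 FPKM only in libraries labelled +Fe, so its difference between the labels follows from the filter given below. The part of these differences in the results below was not tested. In bulk samples, fewer cells of a type and less RNA per cell cannot be told apart.

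In each group 1 library stood apart from the others of its group, with the same shift in all 4: replicate 2 in wild type labelled +Fe, wild type labelled -Fe and pad4 labelled +Fe, and replicate 3 in pad4 labelled -Fe. Their deviations from the group means correlated at r = 0.411 to 0.511 between pairs, across loci. Results that change without them are given below both ways.

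All 6 genes passed the filter of at least 1 FPKM in at least 3 libraries, as did 20173 loci in all. NAS2 passed only through the 6 libraries labelled +Fe, so its difference between the Fe labels follows from the filter and is described, not counted as support.

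NAS4 (AT1G56430; TAIR10 chromosome 1, 21136944 to 21138087) was the most abundant of the 4 synthase transcripts in plants labelled +Fe. In wild type labelled +Fe its 3 libraries held 215, 182 and 211 FPKM, against 11.7, 11.7 and 12.7 in wild type labelled -Fe. In pad4 labelled +Fe they held 141, 116 and 138 FPKM, against 11.6, 9.84 and 11.03 labelled -Fe. No 2 of the 4 groups overlapped, although wild type and pad4 labelled -Fe nearly touched. Replicate 2 was the lowest library in both groups labelled +Fe.

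NAS2 (AT5G56080; chromosome 5, 22711042 to 22712364) was near 0 in every library labelled -Fe. Wild type labelled +Fe held 28.4, 25.2 and 26.9 FPKM and pad4 labelled +Fe 16.8, 14.5 and 15.5. Wild type labelled -Fe was listed at 0, 0.663 and 0, and pad4 labelled -Fe at 0.0898, 0.215 and 0.170. The groups labelled +Fe were apart from each other and from those labelled -Fe, which overlapped. The table gives NAS2 a further row with the same coordinates, averaging 6.07 FPKM against 10.7, so the level of NAS2 is uncertain. That row held 17.1, 12.5 and 19.6 FPKM in wild type and 5.89, 8.28 and 8.17 in pad4, both labelled +Fe, and at most 0.590 in any library labelled -Fe. The order of the groups labelled +Fe was thus the same on both rows.

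NAS3 (AT1G09240; chromosome 1, 2984881 to 2986130) ran the other way and was higher in plants labelled -Fe. Wild type held 1.71, 1.103 and 1.88 FPKM labelled +Fe and 16.3, 11.7 and 16.6 labelled -Fe. The pad4 libraries held 1.97, 1.34 and 1.63 FPKM labelled +Fe and 20.5, 22.0 and 17.6 labelled -Fe. The genotypes overlapped under the +Fe label and were apart under the -Fe label, where pad4 was higher.

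NAS1 (AT5G04950; chromosome 5, 1457645 to 1458890) had 1 group above the rest. Its 3 libraries held 59.6, 59.6 and 53.1 FPKM in wild type labelled +Fe and 34.8, 34.0 and 32.6 in wild type labelled -Fe. In pad4 they held 33.4, 35.2 and 35.2 FPKM labelled +Fe and 36.7, 35.8 and 33.4 labelled -Fe. All libraries outside wild type labelled +Fe lay between 32.6 and 36.7 FPKM, and those 3 groups overlapped.

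FRD3 (AT3G08040; chromosome 3, 2566277 to 2572151) put the 4 groups in the same order as NAS4, at a far lower level in plants labelled +Fe. Wild type held 21.2, 19.4 and 20.1 FPKM labelled +Fe and 2.57, 2.90 and 2.96 labelled -Fe. The pad4 libraries held 13.1, 12.3 and 12.5 FPKM labelled +Fe and 2.35, 2.13 and 2.55 labelled -Fe. None of the 4 groups overlapped.

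ZIF1 (AT5G13740; chromosome 5, 4432306 to 4436668) stood slightly higher in pad4 than in wild type under the +Fe label, unlike NAS1, NAS2, NAS4 and FRD3. Wild type held 225, 220.3 and 221 FPKM labelled +Fe and 23.4, 25.1 and 25.7 labelled -Fe. The pad4 libraries held 248, 237 and 247 FPKM labelled +Fe and 22.2, 25.5 and 23.0 labelled -Fe. Under the -Fe label the genotypes overlapped.

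**Figure D1:**
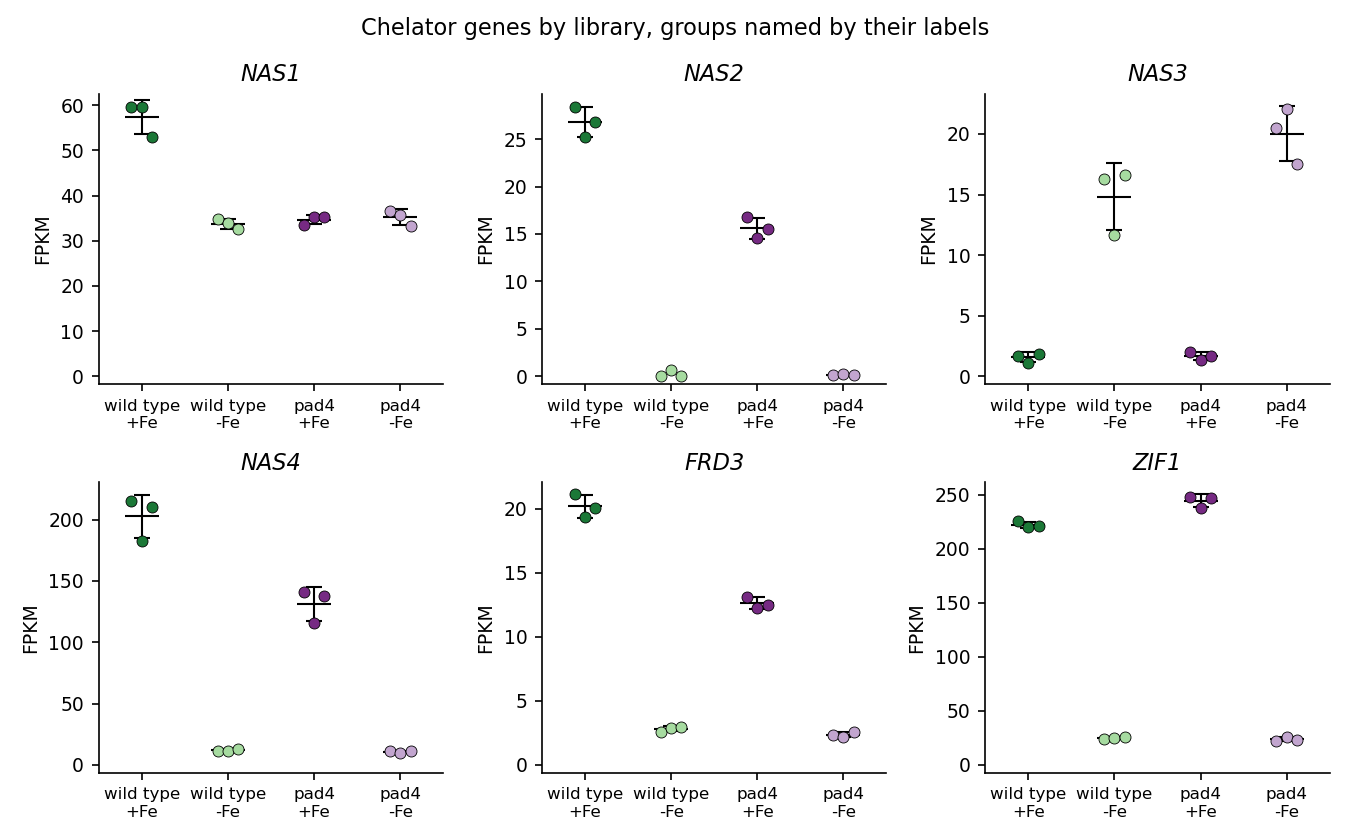
FPKM of the 6 genes in each of the 12 libraries (points), with the group mean and SD where no library is at 0, by genotype and Fe label. NAS4, FRD3 and ZIF1 are high in both groups labelled +Fe, NAS3 in both labelled -Fe, and NAS1 in wild type labelled +Fe alone, at 53.1 to 59.6 FPKM.

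How the Fe label related to each transcript was asked within wild type first, as the -Fe label over the +Fe label on the log2(FPKM + 1) scale, where adding 1 shrinks the differences of low genes. NAS4, FRD3, ZIF1 and NAS1 fell and NAS3 rose. Apart from NAS2, 5 of 5 genes were called by limma at a Benjamini-Hochberg adjusted p under 0.05, 1 higher and 4 lower, where 51.9% of all loci tested were called, 25.2% higher and 26.7% lower. Most of the table moved with the Fe label, so the call itself says little about these genes, and the sizes are given beside their place among all loci. That place counts only the loci further out in the same direction. Likewise the wild-type groups did not overlap at any of these 5 genes, which holds for 59.5% of all loci.

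NAS4 fell 16.9-fold, from 203 ± 17.6 to 11.996 ± 0.585 FPKM (SD, n = 3). Its log2 difference was -3.97 ± 0.0952 (SE; adjusted p = 7.28e-11), and 45 loci fell by more. ZIF1 fell 8.97-fold, from 222 ± 2.76 to 24.8 ± 1.20 FPKM, or by a log2 difference of -3.12 ± 0.0639 (adjusted p = 2.37e-11) and 87 loci further out. FRD3 fell 7.19-fold, from 20.2 ± 0.905 to 2.81 ± 0.209 FPKM, or by a log2 difference of -2.48 ± 0.0775 (adjusted p = 5.80e-10) and 171 loci further out. The nicotianamine maker NAS4, the nicotianamine carrier ZIF1 and the citrate carrier FRD3 thus lay among the loci that fell most. NAS3 rose 9.49-fold, from 1.56 ± 0.407 to 14.8 ± 2.74 FPKM, or by a log2 difference of 2.62 ± 0.160 (adjusted p = 1.38e-07) and 83 loci further out. NAS1 fell less, 1.70-fold from 57.4 ± 3.76 to 33.8 ± 1.14 FPKM, or by a log2 difference of -0.75 ± 0.0661 (adjusted p = 2.89e-06), and 2099 loci fell by more. For NAS2 the fitted log2 difference was -4.55, and no fold is given because libraries were listed at 0. On its other row the fitted difference was -3.70.

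In pad4 limma called NAS4, FRD3, ZIF1 and NAS3 but not NAS1 between the Fe labels, 4 of the 5 genes without NAS2, 1 higher and 3 lower, beside 57.4% of all loci, 26.3% higher and 31% lower. The same 4 genes had no overlap between the labels in pad4, beside 61.8% of all loci. NAS4 fell 12.2-fold, from 131 ± 13.9 to 10.8 ± 0.893 FPKM, a log2 difference of -3.48 (limma adjusted p = 1.76e-10). ZIF1 fell 10.4-fold, from 244 ± 6.06 to 23.6 ± 1.70 FPKM, a log2 difference of -3.32 (adjusted p = 1.08e-11). FRD3 fell 5.40-fold, from 12.6 ± 0.456 to 2.34 ± 0.211 FPKM, a log2 difference of -2.03 (adjusted p = 3.02e-09). NAS3, the synthase that was higher under the -Fe label in both genotypes, rose 12.1-fold from 1.65 ± 0.314 to 20.0 ± 2.27 FPKM, a log2 difference of 2.99 (adjusted p = 4.66e-08). NAS2 stood at 15.6 ± 1.12 and 0.158 ± 0.0632 FPKM, with a fitted log2 difference of -3.84. NAS1 stood at 34.6 ± 1.03 and 35.3 ± 1.71 FPKM, and its log2 difference of 0.03 had a 95% interval from -0.12 to 0.17 (adjusted p = 0.761).

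**Figure D2:**
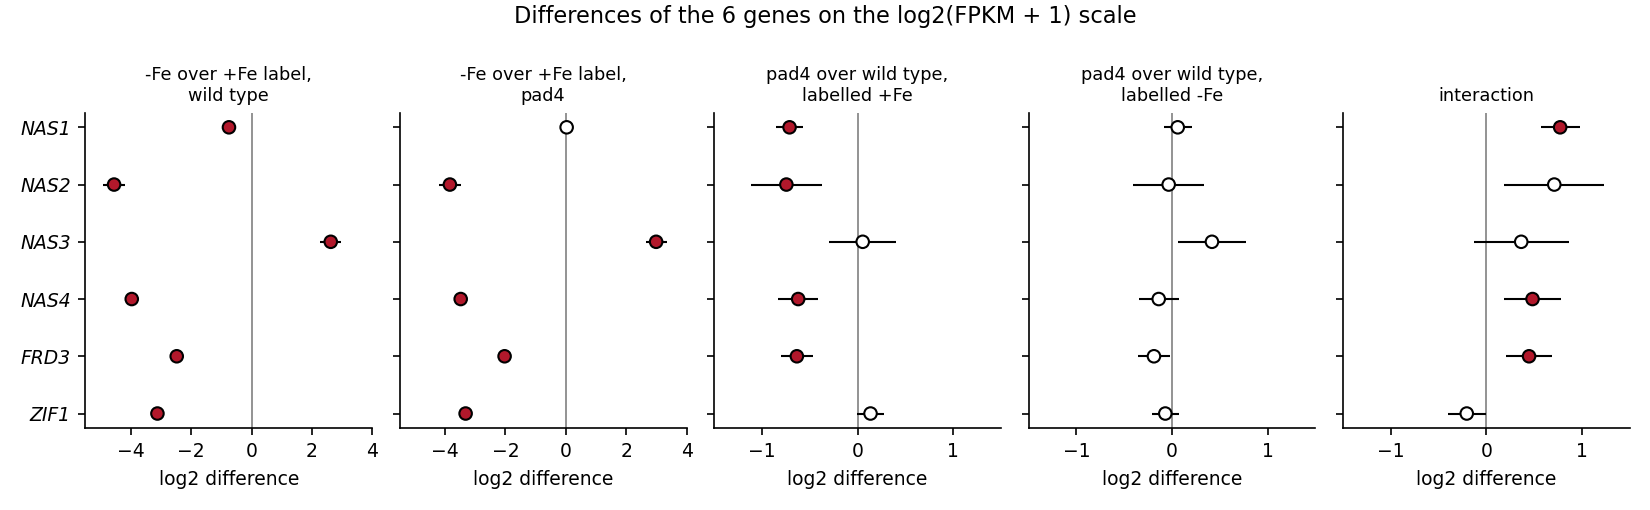
Log2 differences of the 6 genes, with 95% intervals from limma, for the Fe label in wild type and in pad4, for the genotype under each label and for the interaction, with filled points where the adjusted p is under 0.05. The Fe-label differences run from -4.55 (NAS2, wild type) to 2.99 (NAS3, pad4), while the genotype differences all lie within 1 of 0.

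Because the 4 synthases make the same product, their summed transcript level per library was also described. The sum was 288 ± 18.3 FPKM in wild type labelled +Fe, 183 ± 14.6 in pad4 labelled +Fe, 60.8 ± 2.53 in wild type labelled -Fe and 66.3 ± 3.62 in pad4 labelled -Fe (SD, n = 3). The label step was thus 4.74-fold in wild type and 2.77-fold in pad4, and wild type stood 1.57-fold above pad4 under the +Fe label.

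The make-up of that sum differed with the Fe label. NAS4 supplied 70.2 ± 2.05% of it in wild type and 71.6 ± 1.98% in pad4 labelled +Fe, but 19.7 ± 1.00% and 16.4 ± 1.67% labelled -Fe. NAS1 supplied 20.0 ± 2.06% and 19.0 ± 1.97% in plants labelled +Fe, but 55.6 ± 2.97% and 53.2 ± 0.501% labelled -Fe. So NAS4 led the family under one label and NAS1 under the other. NAS3 went from 0.538 ± 0.117% to 24.3 ± 3.62% in wild type and from 0.894 ± 0.110% to 30.1 ± 2.13% in pad4. NAS2 made up 9.30 ± 0.110% in wild type and 8.52 ± 0.301% in pad4 labelled +Fe, and at most 1.14% in any library labelled -Fe.

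Between the genotypes labelled +Fe the NAS4 share overlapped, at 68.0 to 72.0% in wild type and 69.3 to 73.0% in pad4, although the level differed. The NAS1 share overlapped as well, at 18.2 to 22.2% against 17.3 to 21.1%. The NAS2 share did not overlap, at 9.19 to 9.40% against 8.17 to 8.72%, nor did the NAS3 share, at 0.411 to 0.642% against 0.805 to 1.02%. The NAS3 level itself overlapped, with means of 1.56 FPKM in wild type and 1.65 in pad4, so its larger share in pad4 goes with the lower sum there. With 3 libraries against 3 an exact permutation test cannot go below p = 0.1, so no p is given for these shares. With both NAS2 rows added together, NAS2 made up 14.2% in wild type and 12.1% in pad4 labelled +Fe, and NAS4 66.4% and 68.8%.

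**Figure D3:**
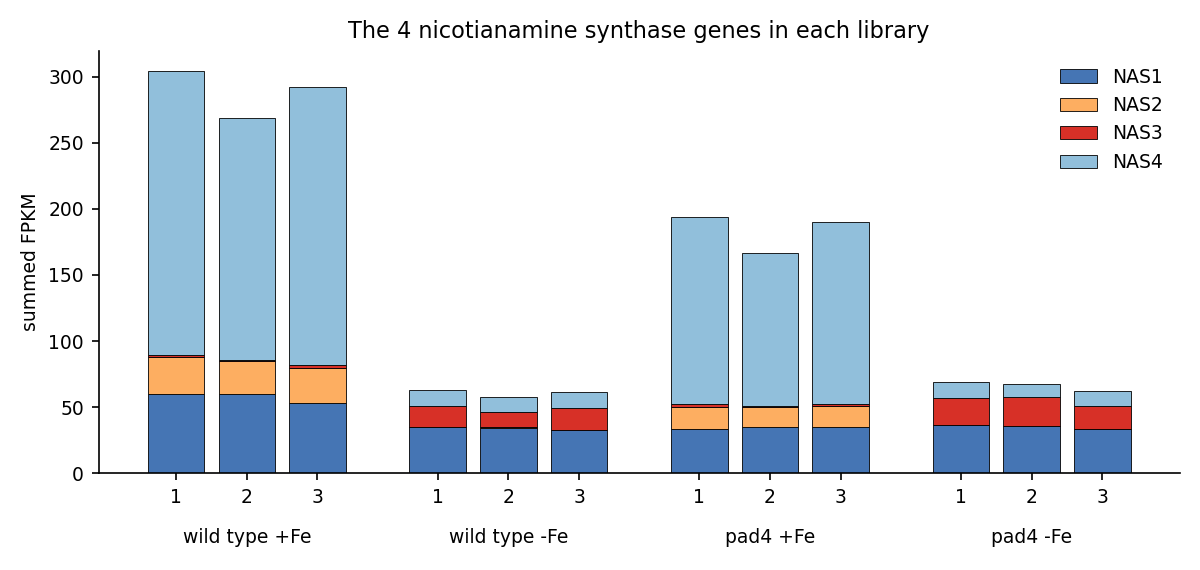
Summed FPKM of NAS1 to NAS4 in each of the 12 libraries, stacked by gene from 0. NAS4 fills most of each bar labelled +Fe, and NAS1 and NAS3 most of each bar labelled -Fe.

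Whether pad4 differed from wild type was asked under each Fe label, as pad4 over wild type. In plants labelled +Fe, NAS1, FRD3, NAS4 and NAS2 were lower in pad4, while NAS3 and ZIF1 were not called. That was 4 of 6 genes, all lower, beside 9.35% of all loci called in either direction, 3.69% higher and 5.66% lower. The median log2 difference of the 6 genes was -0.63, against 0.01 over all loci tested.

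NAS1 fell 1.66-fold, by -0.71 ± 0.0661 on the log2 scale (SE; limma adjusted p = 9.57e-05), with 302 of 20173 loci further out in the same direction. FRD3 fell 1.60-fold, with a log2 difference of -0.64 ± 0.0775 (adjusted p = 0.000497), and NAS4 1.54-fold, with -0.62 ± 0.0952 (adjusted p = 0.00219). The steps of the citrate carrier and of the main synthase were thus of like size. NAS2 stood 1.72-fold lower in pad4, with a log2 difference of -0.74 ± 0.169 (adjusted p = 0.0178). Its call ended without replicate 1 or 3 of wild type (adjusted p = 0.0764 and 0.0634), without replicate 2 or 3 of pad4 (0.0680 and 0.0593), all labelled +Fe, and with 0.1 added in place of 1 (0.490). These fits pool the spread of all 4 groups, and so include the NAS2 libraries labelled -Fe, which lie near 0. With only the groups compared in the fit, the SE was 0.0771 and the NAS2 call was kept (limma adjusted p = 0.00407). On the other NAS2 row the difference was -1.03 (adjusted p = 0.0102). The 3 further calls were kept without each library in turn, and none of the 4 differences reached 1 on the log2 scale.

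ZIF1 was 1.099-fold higher in pad4 labelled +Fe and its libraries did not overlap those of wild type, which holds for 31.7% of all loci tested. Its log2 difference was 0.14 with a 95% interval from -0.01 to 0.28 (limma adjusted p = 0.233). For NAS3 the difference was 0.05 with an interval from -0.30 to 0.40 (adjusted p = 0.870), and its sign turned without wild-type replicate 2 (-0.08) or pad4 replicate 1 (-0.03).

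In plants labelled -Fe, none of the 6 genes was called between the genotypes by limma, beside 27.9% of all loci (13.5% higher and 14.4% lower), and 2 of the 6 had an unadjusted p under 0.05. Those were NAS3, 1.35-fold higher in pad4 with a log2 difference of 0.42 (95% interval 0.07 to 0.77; adjusted p = 0.0756), and FRD3, 1.20-fold lower with -0.19 (adjusted p = 0.0971). The groups were apart at NAS3, NAS4 and FRD3, 3 of 6 genes, beside 37.2% of all loci. Without the 4 libraries that stood apart NAS3 was called, at 0.35 (adjusted p = 0.0261). NAS1 had a difference of 0.06 with an interval from -0.08 to 0.21 (adjusted p = 0.557), NAS4 of -0.14 (0.325) and ZIF1 of -0.07 (0.474). NAS2 lay too low for a comparison here, at 0 to 0.663 FPKM, and its fitted difference of -0.03 changed sign with the settings. With both of its rows added it was called lower in pad4, at -0.32 (adjusted p = 0.0322).

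Whether the step between Fe labels differed between the genotypes was tested by the interaction term, the pad4 difference minus the wild-type difference. NAS1, NAS4 and FRD3 were called, all with a positive term, beside 14.7% of all loci in either direction, 7.07% with a positive and 7.58% with a negative term. For NAS1 the term was 0.77 ± 0.0935 (SE; limma adjusted p = 0.000241), with a 95% interval from 0.57 to 0.98. It was kept without each library in turn, at 0.74 to 0.83. NAS1 thus fell 1.70-fold in wild type while no fall was measured in pad4.

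For NAS4 the term was 0.48 ± 0.135 (limma adjusted p = 0.0340) and for FRD3 0.45 ± 0.110 (adjusted p = 0.0185). Both calls were close to the threshold. That of NAS4 ended without any 1 of 7 libraries, with adjusted p up to 0.0918, and with no filter on low values (0.0534). The 7 were replicates 1 and 3 of wild type labelled +Fe, 1 and 2 of wild type labelled -Fe, 2 of pad4 labelled +Fe, and 1 and 3 of pad4 labelled -Fe. The FRD3 call ended without replicate 1 of wild type labelled +Fe (adjusted p = 0.0595), without the 4 libraries that stood apart (0.0568) and with 0.1 added in place of 1 (0.0565). For NAS2 the term was 0.71 (adjusted p = 0.0719). It was called without replicate 2 of wild type labelled -Fe (0.96, adjusted p = 0.000826), without the 4 libraries apart (0.94, 0.00443) and with both rows added (0.55, 0.0237). NAS2 lay near 0 in wild type and pad4 labelled -Fe, so its term mostly restates its genotype difference labelled +Fe (-0.74). These NAS2 calls are therefore described, not counted as support. NAS3 had a term of 0.36 (adjusted p = 0.327) and ZIF1 one of -0.20 (adjusted p = 0.164), the only negative term of the 6.

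**Figure D4:**
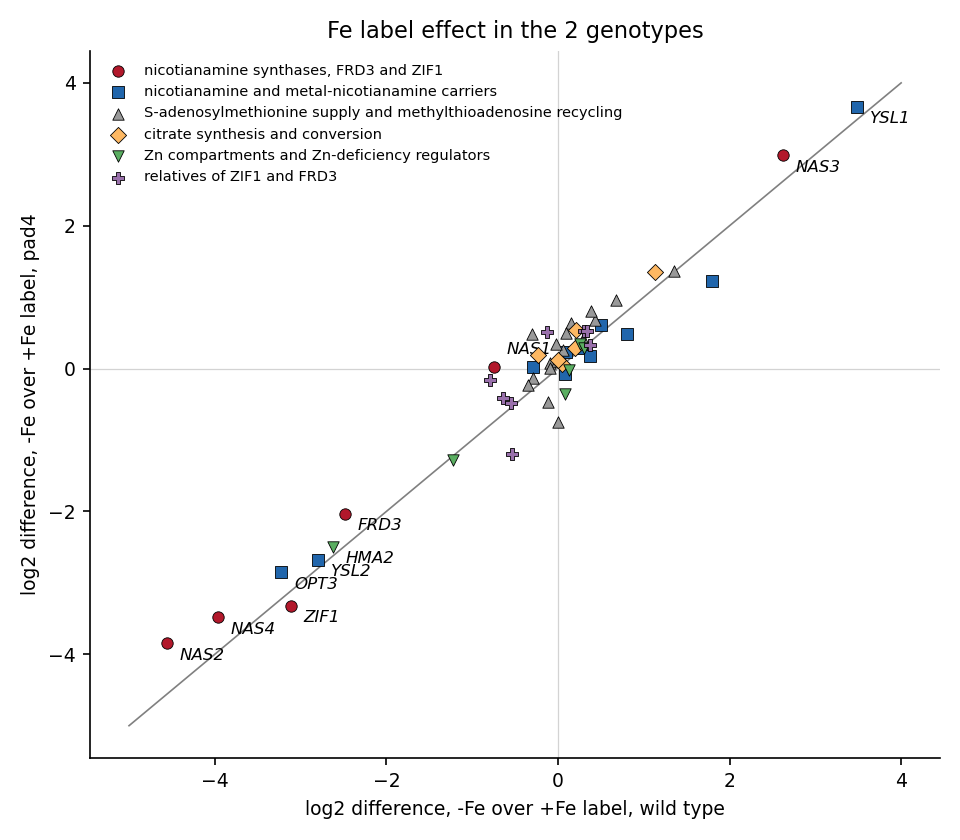
Log2 difference between the Fe labels (-Fe over +Fe) in wild type on the horizontal axis and in pad4 on the vertical axis, 1 point per gene, with the line of equal difference. NAS1 lies farthest above the line relative to its error, at -0.75 in wild type and 0.03 in pad4, and ZIF1 lies below it.

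In the authors' deposited table the log2 fold of pad4 over wild type labelled +Fe was -0.74 for NAS1, -0.79 for NAS2, -0.64 for NAS4 and -0.68 for FRD3, each with q = 0.000984. That shared q goes with the smallest deposited p-value, 5e-05, so it does not rank these genes. For the other NAS2 row the authors' deposited table gave -1.14 with q = 0.0513, and for the Fe label in wild type it gave NAS2 a q of 0.181 on the row used here and 0.0338 on the other. The authors' deposited table gave 0.14 for ZIF1 (q = 0.499) and 0.07 for NAS3 (q = 0.891). For NAS3 labelled -Fe the authors' deposited table gave 0.41 with q = 0.0308, past 0.05 where the limma value was not.

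Nicotianamine synthesis draws on S-adenosylmethionine and leaves methylthioadenosine, which the methionine salvage cycle recycles. Of the 17 genes of this supply that were tested, from a list of 18, 3 rose and 1 fell with the -Fe label in wild type, 8 rose and 3 fell in pad4, and 4 and 3 were lower in pad4 under the +Fe and -Fe labels. Over all loci 51.9% were called in wild type and 57.4% in pad4, and 5.66% and 14.4% were lower in pad4 under the +Fe and -Fe labels. SAHH2, an S-adenosylhomocysteine hydrolase, rose from 155 ± 3.42 to 397 ± 12.4 FPKM in wild type (log2 difference 1.35, limma adjusted p = 1.72e-08). MTN1, the nucleosidase that splits methylthioadenosine, fell from 163 to 128 FPKM (-0.35, adjusted p = 0.000714), and the methionine synthase MS1 rose from 667 to 899 (0.43, adjusted p = 0.00598; 0.0881 after quantile normalization). The salvage gene ARD4 was lower in pad4 labelled -Fe, at 175 ± 29.2 against 291 ± 58.8 FPKM (-0.72, adjusted p = 0.00897). MAT4, an S-adenosylmethionine synthetase, had an interaction term of 0.78 (adjusted p = 0.0144), with 530.2 and 433 FPKM in wild type and 375 and 526 in pad4, labelled +Fe and -Fe. The supply list as a whole had a median log2 difference of 0.01 in wild type, beside -0.02 over all loci, of 0.34 in pad4, beside -0.05, and of 0.17 for the interaction, beside -0.01.

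Carriers of nicotianamine and its metal complexes moved both ways. Of 11 tested, 5 rose and 3 fell with the -Fe label in wild type and 5 rose and 2 fell in pad4, beside the 51.9% and 57.4% of all loci called. Among those that rose, AT5G14940 passed the filter through libraries labelled -Fe alone. YSL1, which takes up metal-nicotianamine in leaf veins and seeds, rose from 3.08 to 44.7 FPKM in wild type (3.49, limma adjusted p = 1.10e-10). YSL2, a further metal-nicotianamine transporter, fell from 42.1 to 5.24 (-2.79, adjusted p = 2.20e-10), and OPT3, a phloem metal transporter that takes part in the Fe signal from shoot to root, fell from 371 to 39.1 (-3.22, adjusted p = 8.05e-08). The carriers YSL1 and YSL2 thus differed in opposite directions, as NAS3 and NAS4 did. Between genotypes labelled -Fe, 1 carrier was higher and 3 were lower in pad4, beside 13.5% higher and 14.4% lower over all loci. The called carriers included YSL5 (0.36, adjusted p = 0.00256) and YSL8 (-0.57, adjusted p = 0.00171).

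Among 8 relatives of ZIF1 and FRD3 in their transporter families, 3 rose and 4 fell with the -Fe label in wild type, beside 25.2% higher and 26.7% lower over all loci. ZIFL1 (AT5G13750), a transporter of the same family as ZIF1, fell from 28.1 to 17.7 FPKM (-0.64, limma adjusted p = 8.04e-05), a smaller step than the 8.97-fold of ZIF1. ZIFL2 fell by 0.79 on the log2 scale (adjusted p = 0.000488). ZIF2, a vacuolar transporter linked to Zn tolerance, was higher in pad4 labelled -Fe, at 22.4 ± 1.57 against 11.2 ± 0.327 FPKM (0.94, adjusted p = 9.13e-06). AT1G51340, annotated as a MATE efflux protein like FRD3, fell in wild type (-0.53, adjusted p = 0.000241) and was lower in pad4 labelled -Fe (-0.58, adjusted p = 0.000320). Its group means were 27.3 and 18.7 FPKM in wild type and 29.0 and 12.1 in pad4, labelled +Fe and -Fe. Under the +Fe label it was not called between the genotypes, where FRD3 was.

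Citrate, the cargo of FRD3, is made and converted by citrate synthases and aconitases. Of 6 such genes tested, from a list of 8, 1 rose and 1 fell with the -Fe label in wild type, and 4 rose in pad4, beside the 51.9% and 57.4% of all loci called. The aconitase ACO3 rose from 68.8 to 152 FPKM (1.13, limma adjusted p = 7.50e-08). ACO1 fell in wild type by 0.23 (adjusted p = 0.0196), a call that ended after quantile normalization (0.103), without replicate 1 or 3 of wild type labelled +Fe (0.0642 and 0.0681) or without replicate 2 labelled -Fe (0.0738). It was higher in pad4 labelled -Fe (0.40, adjusted p = 0.00163).

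Zn-handling genes bear on ZIF1, whose loss is known to make plants sensitive to Zn. Of 6 tested, from a list of 8, 2 rose and 2 fell with the -Fe label in wild type and 2 rose and 3 fell in pad4, beside the same 51.9% and 57.4%. HMA2, a pump that loads Zn into the xylem, fell from 19.9 to 2.39 FPKM (-2.63, limma adjusted p = 1.70e-09), and PCR2, a Zn exporter, fell from 193 to 82.4 (-1.22, adjusted p = 2.90e-06). HMA4, the partner pump of HMA2, rose by 0.26 in wild type (adjusted p = 0.0136). It was the 1 Zn gene called in pad4 labelled -Fe (0.28, adjusted p = 0.0159), beside 27.9% of all loci called. That call ended without replicate 1 of wild type (0.0534), without replicate 3 of pad4 (0.0560), without the 4 libraries apart (0.0762) and with only the groups compared in the fit (0.0776).

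Of 12 bHLH regulators of Fe genes, 2 were higher and 8 lower with the -Fe label in both genotypes, beside 51.9% and 57.4% of all loci called. Of these 10, bHLH38, bHLH39, bHLH100 and bHLH101 passed the filter through libraries labelled +Fe alone and bHLH11 through those labelled -Fe alone, so their differences follow from the filter, as for NAS2. bHLH38 averaged 338 and 278 FPKM and bHLH39 averaged 309.9 and 302 FPKM in wild type and pad4 labelled +Fe, and neither passed 0.330 in a library labelled -Fe. None of the 12 was called between genotypes labelled +Fe, beside 9.35% of all loci. PYE, a regulator known to bind NAS4 and ZIF1 in roots, was picked out after its values were seen. It stood at 130 ± 21.4 FPKM in wild type and 141 ± 20.7 in pad4 labelled +Fe, and at 19.5 ± 4.32 and 23.2 ± 3.89 labelled -Fe (limma adjusted p = 2.32e-07 in wild type). Between genotypes its adjusted p was 0.722 labelled +Fe and 0.339 labelled -Fe. Under the -Fe label URI was higher in pad4 (0.50, adjusted p = 0.000252) and FIT lower (-0.83, adjusted p = 0.00256).

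The genes whose levels followed each member most closely were sought by Pearson's r of log2(FPKM + 1) over the 12 libraries, among 19418 loci. The libraries fall into 2 clusters by Fe label, so a high r mostly restates that split, and no p is given. NAS1, the exception to the split, was followed by PPC2, a phosphoenolpyruvate carboxylase (r = 0.989), by the beta-glucosidase gene BGLU47 (0.942) and by the flavonoid glucosyltransferase gene UGT73B2 (0.937). Like NAS1, PPC2 was high in wild type labelled +Fe, at 400.3 FPKM, and stood at 316 to 327 in the other 3 groups. NAS2 was followed by ATSDI1 (0.996), AT5G54450 (0.995) and LSU1 (0.995). ATSDI1 and LSU1 are known as genes induced by sulfur shortage, and LSU1 stood at 385 FPKM in wild type and 228 in pad4 labelled +Fe against 15.4 and 14.2 labelled -Fe.

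NAS4 was followed by AT1G74770 (r = 0.999), the transcription factor gene MYB72 (0.998), known from Fe-deficient roots, and AT5G54450 (0.998). MYB72 stood at 22.1 FPKM in wild type and 15.3 in pad4 labelled +Fe. FRD3 was followed by DFR, an enzyme of anthocyanin synthesis (0.997), at 40.7 and 24.4 FPKM in wild type and pad4 labelled +Fe, and by AT1G76570 and AT5G15500 (both 0.996). Genes chosen for a high r share the steps of the gene they follow, so these levels are a description of the match. ZIF1 was followed by NDB4, a mitochondrial NADH dehydrogenase, and by the regulators bHLH100 and bHLH101 (each 0.999), which all averaged higher in pad4 labelled +Fe. NAS3 was followed by the receptor kinase gene BAM2 and by FAP3 and PSAN, genes of plastid proteins (each 0.997), and PSAN rose from 185 to 1103 FPKM between the labels in wild type.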

How the data were processed

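For 28693 loci the authors deposited FPKM, and the submitters' processing notes name the TAIR10 build. How reads were aligned, counted, split among similar NAS genes or assigned to a strand is not stated in the labels or headers. Several genes are merged at 354 loci. The file starts are counted from 0, so 1 was added. Tables of comparisons deposited by the authors give a log2 fold with its p-value and q-value, per the file headers; the smallest deposited p-value is 5e-05. A test score deposited by the authors was not used.

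The fit covered the 20173 loci that reached 1 FPKM in 3 libraries and used log2(FPKM + 1) in limma 3.58.1 under R 4.3.3, with a trended eBayes step. It held all 12 libraries, with a mean for each group, and calls needed a Benjamini-Hochberg adjusted p under 0.05 over all loci tested. The steps were tested on simulated data. FPKM of a library sum to 894824 to 1004002 and carry no count, so the depth is unknown and no counting interval is given. The alternatives were a pseudocount of 0.1, quantile normalization, no filter, a log2 difference of at least 1, only the groups compared, limma without the trend, a replicate block, each library left out, the 4 libraries that stand apart left out, and, added after seeing the data, the other NAS2 row and both rows summed.

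The 6 genes and the gene lists were chosen with earlier results of these data known. From each list the text names up to 3 genes with the smallest adjusted p in the wild-type Fe comparison, up to 2 called in the genotype comparisons or the interaction, and for each member the 3 most alike loci. A gene that this rule picks from the citrate list is not reported here. Symbols absent from the files came from a RefSeq table of TAIR10.1.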

Additional observations from a re-analysis of the deposited data

Results flagged for a closer look

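For 3 of the 6 genes the Fe-label difference itself differed between wild type and pad4 by the interaction term of limma, beside 14.7% of all loci called for that term. The term was 0.77 for NAS1, with differences of -0.75 in wild type and 0.03 in pad4 on the log2 scale. For NAS4 it was 0.48, with -3.97 and -3.48, and for FRD3 it was 0.45, with -2.48 and -2.03. All 3 genes were lower in pad4 than in wild type under the +Fe label, in 3 of 3 libraries each. Such a lack of overlap, in either direction, held for 31.7% of all loci. The interaction term contains this genotype difference, which is therefore not separate support for it. The NAS1 call was kept without each library in turn, while that of NAS4 ended without any 1 of 7 of the 12 libraries and that of FRD3 without replicate 1 of wild type labelled +Fe.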

How the results depend on the processing

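Of 604 alternative values of single members, 567 kept their direction and side of the threshold, 24 lost a call, 5 gained one and 8 changed sign. Of 819 for other named genes, 788 kept both and 31 lost a call. Many of these values could not change sign, since dropping a library outside the groups compared leaves the difference itself unchanged. The same holds for limma without the trend, the replicate block, the fit of only the groups compared and the log2 threshold. The 604 also include the Fe-label differences of NAS2, which follow from the filter. With a log2 difference of at least 1 required, the loci called fell to 2364 of 10475 for the Fe label in wild type, 2618 of 11572 in pad4, 137 of 1887 for the genotype labelled +Fe, 765 of 5631 labelled -Fe and 703 of 2957 for the interaction, and the members called fell to 0 of 4 for the genotype labelled +Fe and 0 of 3 for the interaction. With each library left out, 1030 to 2065 loci were called for the genotype labelled +Fe and 1 to 3 members for the interaction. Without the 4 libraries apart, 3141 loci were called for the genotype labelled +Fe, and 1 member for the genotype labelled -Fe. With each library left out, NAS1 between the Fe labels in pad4 ranged from -0.0028 (without replicate 1 labelled -Fe) to 0.0638, NAS3 between genotypes labelled +Fe from -0.083 to 0.143, and NAS2 between genotypes labelled -Fe from -0.157 to 0.21 (without replicate 2 of wild type). NAS2 there turned to 0.0405 after quantile normalization, 0.36 with 0.1 added and 0.20 without the 4 apart, and to 0.0086 without replicate 1 of pad4. With both NAS2 rows added, the NAS2 share was 14.2%, 12.1% and 0.381% in wild type and pad4 labelled +Fe and pad4 labelled -Fe, and the NAS4 share 66.4% and 68.8% in wild type and pad4 labelled +Fe. The cause of these changes was not tested. With a replicate block the members called, NAS2 included, were 6, 5, 4, 0 and 3 over the 5 comparisons, as without it, and the loci 10538, 11662, 1870, 5638 and 2929. Same-numbered libraries correlated at -0.424 to 0.511 and 10 of 18 pairs exceeded 0.1, while 4 of 12 libraries matched their own number best, so the numbers were not taken as pairs. With the depth unknown, no counting error can be given for low values such as NAS2 labelled -Fe.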
